A study of Mus musculus with 10 samples.

Results

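Cell cycle and DNA replication genes were followed in mouse ear skin treated with the inflammatory compound imiquimod, with or without the sodium channel blocker benzamil. The set is a list of 48 genes with known roles in these processes, found in the tables by gene name. All 48 were in the deposited benzamil table, which lists 10653 genes, and 47 were among the 9779 genes present in both deposited tables. Cdc6 was the exception. Of the 47, 36 passed the filter on low reads and were tested among 5245 genes. Those 36 are therefore not the whole set. Of them, 35 were over the filter's cutoff of 34.9 CPM (counts per 1000000 reads) in at least 2 DMSO libraries, 19 in at least 2 benzamil libraries and 10 in both untreated libraries, so the filter kept members mainly through the DMSO group.

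The mice were of the c57/Bl6 strain and 6 to 8 weeks old, and no genetic change is given for any group. In the benzamil group (n = 4 libraries) imiquimod was combined with benzamil, a relative of amiloride known to block the sodium channel ENaC. In the DMSO group (n = 4) imiquimod was combined with the solvent DMSO, and the untreated group (n = 2) received no treatment. Treatment was topical for 6 days, with doses not given in the sources used here. The labels name ear skin for all 10 libraries, whereas the series' design text names back skin for the untreated control, so body site and treatment cannot be told apart in comparisons with the untreated group. Nothing in the labels ties the replicates to separate animals, so p-values measure the spread between these libraries, which may be technical.

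Cell division copies the genome in S phase and separates the copies in mitosis. Replication needs the MCM helicase, loaded onto origins by Cdc6 and Cdt1, the sliding clamp Pcna, and a supply of deoxynucleotides made by ribonucleotide reductase and thymidylate synthase. Entry into and passage through mitosis depend on Cdk1 with its cyclins, and the anaphase-promoting complex then marks cyclins and securin for destruction. In skin, keratinocyte division is normally limited to the basal epidermis and its appendages, and imiquimod is widely used in mice to produce a thickened, psoriasis-like epidermis.

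Libraries were shallow, with 138440 to 375455 reads in the benzamil group, 259262 to 935714 in the DMSO group, and 74614 and 71144 in the untreated libraries. A single read was worth 2.66 to 7.22 CPM with benzamil, 1.07 to 3.86 CPM with DMSO, and 13.4 and 14.1 CPM in untreated skin. Ribosomal RNA genes took 31.0% to 45.7% of reads with benzamil, 22.1% to 28.8% with DMSO, and 34.2% and 38.6% in the untreated libraries, and CPM is not corrected for this. Levels below are CPM, listed by library in the order of their numbers or as mean ± SD. Fold changes are log2 values ± an approximate SE, from the quasi-likelihood test of edgeR on TMM-scaled reads, with Benjamini-Hochberg adjusted p-values over all 5245 genes and a gene called under 0.05.

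In imiquimod-treated skin, 5 of 11 tested genes of the replication fork and nucleotide supply were lower with benzamil than with DMSO. So were 7 members with roles in mitosis, chromatin or microtubules, and the cyclin Ccnd2 was higher. The test called 12 members lower and 1 higher, where 12.1% of all genes tested were called lower and 9.91% higher. The 12 were the helicase subunit Mcm6, the clamp Pcna, the nucleotide-supply enzymes Rrm1, Rrm2 and Dut, the mitotic regulators Cdk1, Ccna2, Cks1b, Bub3 and Cdc20, the chromatin protein Hmgb2 and the tubulin Tubb5. Of the 36 members tested, 33 had a negative log2 fold change, against 50.3% of all genes tested. The median was -0.78 over the members and -0.01 over all genes. The filter kept members mainly through the DMSO group, which by itself favours members that are lower with benzamil. Neither these counts and the median nor the counts by role below are free of that selection. In CPM, every benzamil library was below every DMSO library for 16 tested members, where this held for 20.6% of all genes, and every benzamil library was above for Ccnd2, where it held for 5.95%. Reads of all 47 members together made up 0.277%, 0.319%, 0.208% and 0.307% of the reads in benzamil libraries 1 to 4, against 0.434%, 0.446%, 0.364% and 0.383% in DMSO libraries 1 to 4, and 0.251% and 0.239% in the untreated libraries. Ccnd2 alone gave 662 of these 2896 reads with benzamil, 596 of 7970 with DMSO and 140 of 357 untreated. Without Tuba1b, Tubb5, Ccnd1, Ccnd2, Stmn1 and Hmgb2, the other 41 members summed to 1307 to 2368 CPM with benzamil. That sum was 2889 to 3480 CPM with DMSO, and 1126 and 1321 CPM untreated. In bulk tissue fewer dividing cells and less of these RNAs per cell cannot be told apart. With scaling by library totals, the median gene moved by -0.26, and 19 members were called lower and 1 higher, where 19.2% of all genes were called lower and 4.73% higher. With all libraries thinned to the read number of the shallowest one, 9 members and 1535 genes could still be tested, of which Rrm1 was called lower and Ccnd2 higher, where 8.79% of those genes were called lower and 9.06% higher.

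**Figure D1:**
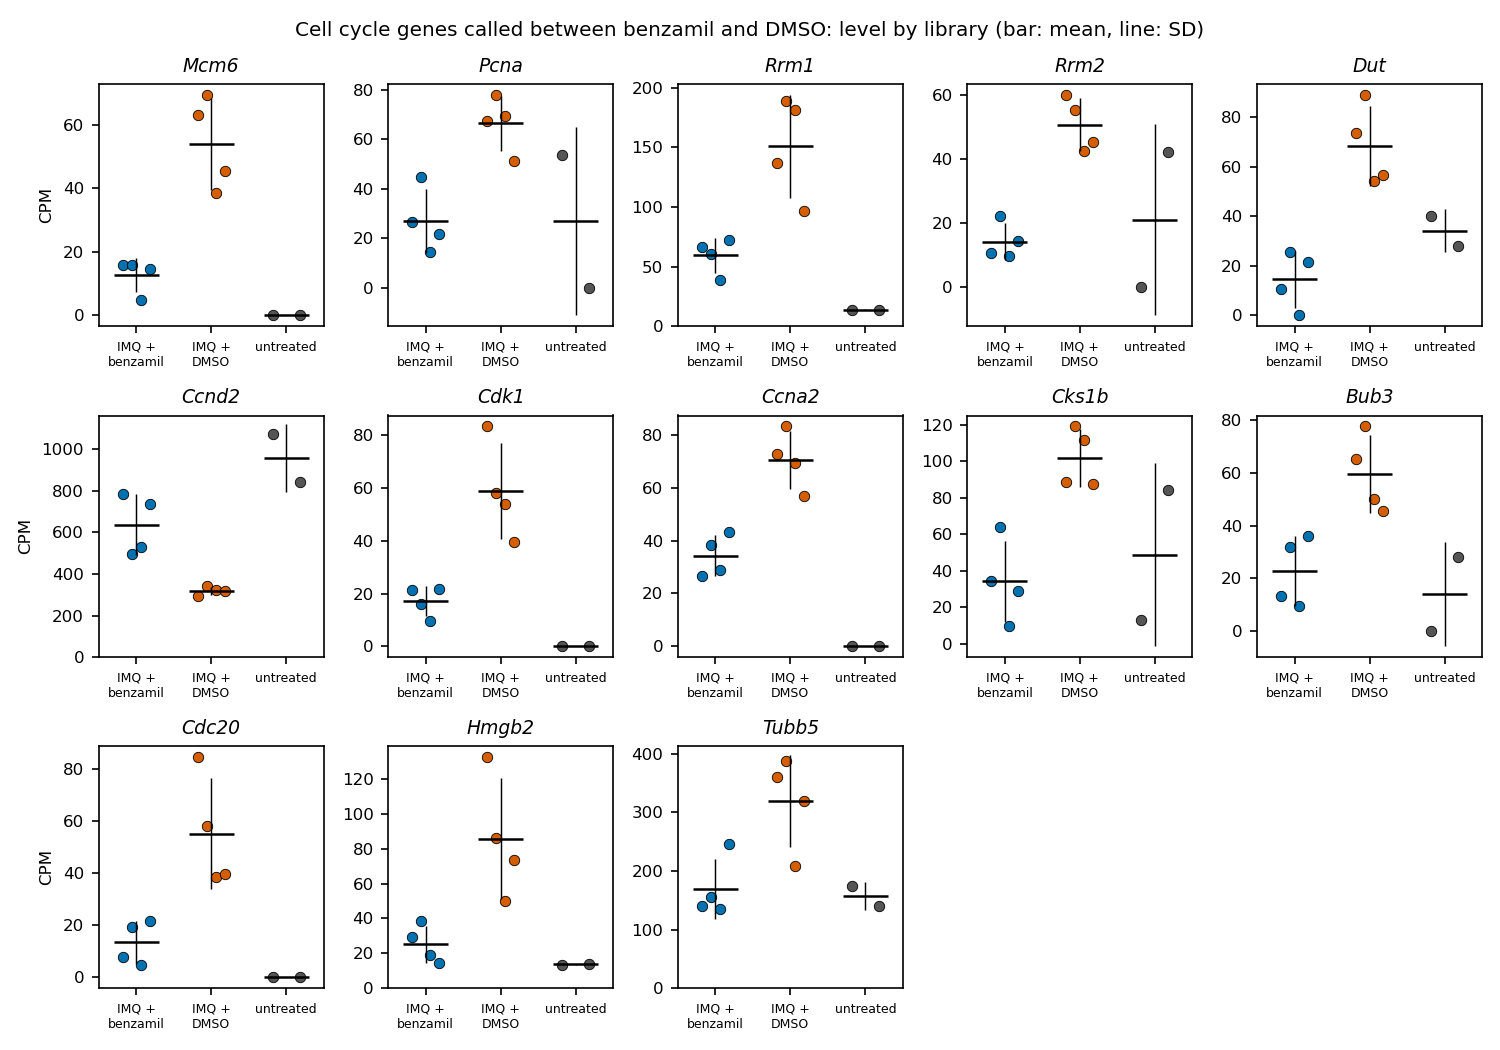
Level in CPM (vertical axis) of each of the 13 members called between benzamil and DMSO, by library, for skin treated with imiquimod (IMQ) and benzamil, with imiquimod and DMSO, and untreated skin. Points are libraries, horizontal bars group means and vertical lines the SD. For Ccnd2 the 4 benzamil libraries lie at 495 to 786 CPM, above the DMSO libraries at 295 to 341 CPM. For 11 of the other 12 members all benzamil points lie under all DMSO points, and for Tubb5 the groups overlap.

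Promoters of the 6 members called lower with the smallest adjusted p are printed because replication and mitosis genes are known to carry different motifs. E2F factors bind upstream of many replication genes, and the CHR element together with CCAAT boxes marks many mitotic genes, through which the DREAM, MuvB and NF-Y complexes act. The sequences are from RefSeq on GRCm38.p6, 250 bases before to 50 after the annotated start, 5′ to 3′ on the gene's strand, with matches on either strand in capitals. The CHR motif searched was TTTGAA, which reads TTCAAA where it lies on the other strand. The NF-Y box searched was CCAAT, which there reads ATTGG. For E2F the words searched were TTCCCGCC or its neighbour TTTCCCGC, whose matches can overlap, and also TTTGGCGC.
Dut (chr2:125247265-125247564, + strand): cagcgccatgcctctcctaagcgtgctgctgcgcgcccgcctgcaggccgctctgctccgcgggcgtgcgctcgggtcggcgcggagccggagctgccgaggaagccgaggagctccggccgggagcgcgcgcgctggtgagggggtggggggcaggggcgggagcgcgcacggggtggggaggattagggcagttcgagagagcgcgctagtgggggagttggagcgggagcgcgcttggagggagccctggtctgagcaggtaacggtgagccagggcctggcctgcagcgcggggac
Cdc20 (chr4:118437294-118437593, - strand): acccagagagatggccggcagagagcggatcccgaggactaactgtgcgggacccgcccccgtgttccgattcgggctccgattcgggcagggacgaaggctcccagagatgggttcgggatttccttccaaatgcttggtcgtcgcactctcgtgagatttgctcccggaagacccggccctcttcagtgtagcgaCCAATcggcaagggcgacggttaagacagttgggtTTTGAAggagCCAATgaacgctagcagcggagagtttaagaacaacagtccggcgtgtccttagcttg
Mcm6 (chr1:128359656-128359955, - strand): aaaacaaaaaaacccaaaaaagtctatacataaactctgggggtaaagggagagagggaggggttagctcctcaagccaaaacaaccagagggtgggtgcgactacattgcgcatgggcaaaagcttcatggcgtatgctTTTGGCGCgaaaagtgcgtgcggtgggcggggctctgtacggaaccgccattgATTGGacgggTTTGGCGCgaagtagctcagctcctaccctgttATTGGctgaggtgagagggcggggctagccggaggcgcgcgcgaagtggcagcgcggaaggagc
Hmgb2 (chr8:57511593-57511892, + strand): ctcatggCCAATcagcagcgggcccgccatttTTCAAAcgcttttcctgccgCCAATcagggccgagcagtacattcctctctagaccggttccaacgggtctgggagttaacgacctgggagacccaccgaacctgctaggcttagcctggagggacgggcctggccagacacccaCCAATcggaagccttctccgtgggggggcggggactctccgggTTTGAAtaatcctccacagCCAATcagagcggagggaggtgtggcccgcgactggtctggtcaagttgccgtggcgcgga
Cdk1 (chr10:69352863-69353162, - strand): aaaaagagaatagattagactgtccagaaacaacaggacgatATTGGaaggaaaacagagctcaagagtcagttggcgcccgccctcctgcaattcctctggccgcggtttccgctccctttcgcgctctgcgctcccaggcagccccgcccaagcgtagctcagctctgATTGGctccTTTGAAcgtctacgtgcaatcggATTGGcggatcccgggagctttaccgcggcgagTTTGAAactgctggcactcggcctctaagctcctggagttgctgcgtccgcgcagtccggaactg
Rrm1 (chr7:102441445-102441744, + strand): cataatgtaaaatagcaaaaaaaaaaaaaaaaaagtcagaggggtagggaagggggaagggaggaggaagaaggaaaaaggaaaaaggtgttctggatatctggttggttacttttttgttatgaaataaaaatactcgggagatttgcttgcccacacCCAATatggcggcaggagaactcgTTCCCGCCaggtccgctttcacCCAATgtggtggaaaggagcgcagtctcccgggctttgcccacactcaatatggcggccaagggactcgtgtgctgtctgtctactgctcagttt

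The Mcm6 window held 2 E2F matches and the Rrm1 window 1, each with 2 CCAAT matches. The Cdk1 window held 2 CHR and 3 CCAAT matches, Hmgb2 held 2 and 4, and Cdc20 held 1 and 2. The Dut window held no match to these letters. It begins at 125247265, inside the gene as annotated in GENCODE from 125247190, so the bases before that gene start were not searched. Of the 48 members, 40 had a promoter in the table. An E2F match was present in 7 of 15 replication members (46.7%) and 0 of 20 mitosis members, against 3.69% of 27025 genes in the table. A CHR match was present in 14 of 20 mitosis members (70.0%) and 2 of 15 replication members (13.3%), against 20.2% of all genes, and CCAAT in 18 of 20 (90.0%) and 8 of 15 (53.3%), against 41.1%. A match is a string of letters and not a measured binding site.

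**Figure D2:**
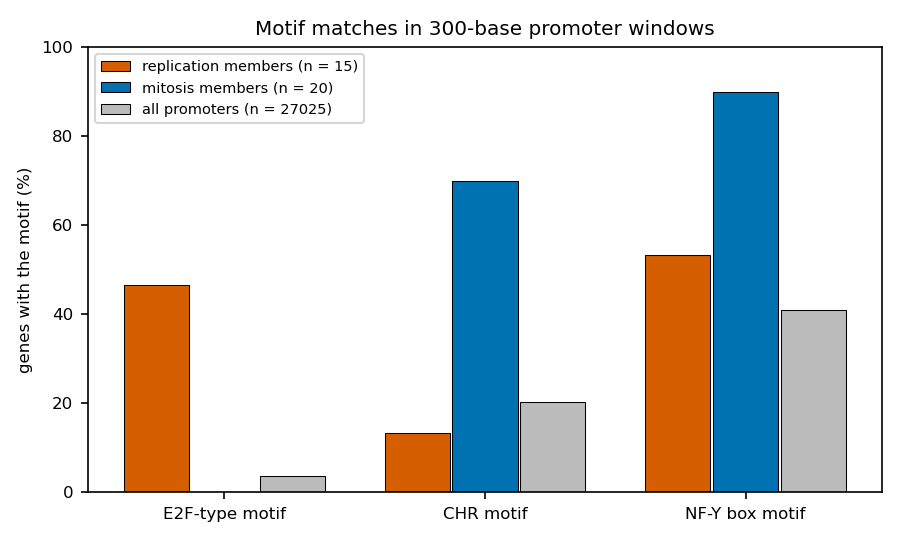
Share of genes (vertical axis, percent) whose 300-base promoter window holds an E2F, CHR or CCAAT (NF-Y box) match, for 15 replication members, 20 mitosis members and 27025 genes of the RefSeq table. E2F matches occur in 46.7% of the replication members and in 0 of the mitosis members, and CHR matches in 70.0% of the mitosis members.

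Among replication fork and licensing genes, the MCM helicase subunits and the clamp Pcna were at lower mean levels with benzamil. Of the 7 tested genes of this group 2 were called lower, where 12.1% of all genes were. Mcm6 (chromosome 1, 128331590 to 128359664, mm10) had 16.0, 16.0, 4.82 and 14.4 CPM in the benzamil libraries, against 63.1, 69.3, 38.6 and 45.3 CPM in the DMSO libraries and 0 in both untreated libraries. Every benzamil library lay below every DMSO library, and the log2 fold change was -1.80 ± 0.40 (edgeR adjusted p = 0.00253). Pcna (chromosome 2, 132249162 to 132253314), the ring that holds the replicative polymerases on DNA, had 26.6, 44.7, 14.5 and 21.7 CPM with benzamil, against 67.3, 77.6, 69.4 and 51.0 CPM with DMSO, and 53.6 and 0 CPM untreated. Its groups did not overlap either, but the call was marginal (-0.97 ± 0.35, edgeR adjusted p = 0.0496). It was lost in 11 of 21 alternatives, with adjusted p up to 0.277, and the authors' deposited table gave Pcna an adjusted p of 0.0934. Leaving out benzamil library 1, 3 or 4 or DMSO library 1, 2 or 3 each lost it (edgeR adjusted p = 0.0762 to 0.140).

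Of the other helicase subunits, Mcm3, Mcm4, Mcm5 and Mcm7 did not pass the test, and Mcm2 had too few reads to be tested. Mcm4 had 18.6, 31.9, 9.65 and 14.4 CPM with benzamil, against 60.9, 55.4, 30.9 and 34.0 CPM with DMSO and 0 in both untreated libraries (-1.02 ± 0.40, edgeR adjusted p = 0.0671). Mcm5 had 18.6, 38.3, 14.5 and 21.7 CPM with benzamil, against 43.8, 47.1, 54.0 and 62.3 CPM with DMSO and 0 in both untreated libraries (-0.83 ± 0.36, edgeR adjusted p = 0.0957). For Mcm5 the treated groups did not overlap, whereas for Mcm4 benzamil library 2 lay just above DMSO library 3. Mcm4 passed when either untreated library was left out of the fit (edgeR adjusted p = 0.04997 and 0.0471). Mcm3 averaged 30.8 ± 21.4 CPM with benzamil and 74.8 ± 21.2 CPM with DMSO (-0.87 ± 0.35, edgeR adjusted p = 0.0744), and Mcm7 averaged 61.5 ± 12.6 CPM with benzamil and 103 ± 23.4 CPM with DMSO (-0.45 ± 0.27, edgeR adjusted p = 0.237). The DNA ligase Lig1, which seals Okazaki fragments, had 87.9, 73.4, 111 and 116 CPM with benzamil, against 111, 114, 100.3 and 108 CPM with DMSO and 93.8 and 42.2 CPM untreated. Its treated groups overlapped, with a log2 fold change of 0.04 ± 0.25 (edgeR adjusted p = 0.927).

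Of 4 tested members that supply nucleotides, 3 were called lower, where 12.1% of all genes were. Of these 3, Rrm2 and Dut were over the filter's cutoff in 4 DMSO and 0 benzamil libraries. Rrm1 (chromosome 7, 102441695 to 102469771), the large subunit of ribonucleotide reductase, had 66.6, 60.6, 38.6 and 72.2 CPM with benzamil, against 137, 188, 181 and 96.3 CPM with DMSO, and 13.4 and 14.1 CPM untreated. Benzamil libraries were thus below all DMSO libraries and above both untreated ones, and the log2 fold change against DMSO was -1.08 ± 0.26 (edgeR adjusted p = 0.00461). The untreated libraries held 1 read of Rrm1 each, and it was not called between benzamil and untreated skin (edgeR adjusted p = 0.112). Rrm2 (chromosome 12, 24708241 to 24714146), the small subunit, had 10.7, 22.3, 9.65 and 14.4 CPM with benzamil, against 59.8, 55.4, 42.4 and 45.3 CPM with DMSO, and 0 and 42.2 CPM untreated (-1.60 ± 0.42, edgeR adjusted p = 0.00742). Its treated groups did not overlap, and without benzamil libraries 3 and 4 the adjusted p was 0.0539. Dut (chromosome 2, 125247190 to 125258608) encodes the dUTPase that keeps uracil out of DNA. It had 10.7, 25.5, 0 and 21.7 CPM with benzamil, against 73.7, 88.7, 54.0 and 56.7 CPM with DMSO, and 40.2 and 28.1 CPM untreated. All benzamil libraries lay under both other groups, with a log2 fold change against DMSO of -2.01 ± 0.41 (edgeR adjusted p = 0.0011). The untreated libraries held 3 and 2 reads of Dut, and it was not called between benzamil and untreated skin (edgeR adjusted p = 0.513).

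Thymidylate synthase, Tyms, differed from these enzymes in its values. It had 16.0, 35.1, 38.6 and 79.5 CPM with benzamil, against 40.6, 36.0, 27.0 and 31.2 CPM with DMSO and 0 in both untreated libraries. The treated groups overlapped, benzamil library 4 being the highest and benzamil library 1 the lowest of the 8, and the log2 fold change was 0.29 ± 0.40 (edgeR adjusted p = 0.645).

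Ccnd2 (chromosome 6, 127125162 to 127152193), a D-type cyclin that partners Cdk4 and Cdk6 in G1, was the member called higher with benzamil. It had 786, 495, 531 and 737 CPM with benzamil, against 295, 341, 324 and 320.2 CPM with DMSO, and 1072 and 843 CPM untreated. The DMSO libraries were the lowest, and each benzamil library was above all of them and below both untreated libraries. The log2 fold change against DMSO was 1.25 ± 0.20 (edgeR adjusted p = 7.90e-05), called in all 22 alternatives. Ccnd1, the other D-type cyclin of the set, averaged 81.7 ± 15.7 CPM with benzamil and 103 ± 33.0 CPM with DMSO (-0.18 ± 0.27, edgeR adjusted p = 0.675). Exons of Ccnd2 overlap 9330179D12Rik and Gm43126 on the opposite strand, and the strand setting of the read counting is not given in the sources used here.

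Of 6 tested mitotic kinases and cyclins, 3 were called lower with benzamil, where 12.1% of all genes were. Cdk1 (chromosome 10, 69335146 to 69352938), the kinase that drives entry into mitosis, had 21.3, 16.0, 9.65 and 21.7 CPM with benzamil, against 83.4, 58.2, 54.0 and 39.7 CPM with DMSO and 0 in both untreated libraries. Its treated groups did not overlap, and the log2 fold change was -1.59 ± 0.38 (edgeR adjusted p = 0.00451). Cks1b (chromosome 3, 89415472 to 89418383), a small Cdk-binding protein, had 34.6, 63.8, 9.65 and 28.9 CPM with benzamil, against 88.7, 119, 112 and 87.8 CPM with DMSO, and 13.4 and 84.3 CPM untreated (-1.21 ± 0.34, edgeR adjusted p = 0.012). Benzamil libraries lay under the DMSO libraries, and without benzamil libraries 3 and 4 the adjusted p was 0.134. Ccna2 (chromosome 3, 36564865 to 36572150), the cyclin of S and G2 phases, had 26.6, 38.3, 28.9 and 43.3 CPM with benzamil, against 72.7, 83.1, 69.4 and 56.7 CPM with DMSO and 0 in both untreated libraries. Its groups did not overlap, but the call (-0.85 ± 0.31, edgeR adjusted p = 0.0469) was lost in 13 of 21 alternatives, with adjusted p up to 0.184. Leaving out any benzamil library, or DMSO library 1, 2 or 3, each lost it (edgeR adjusted p = 0.0561 to 0.184). The authors' deposited table gave Ccna2 an adjusted p of 0.131. The B-type cyclins Ccnb1 (-0.39 ± 0.44, edgeR adjusted p = 0.559) and Ccnb2 (-0.92 ± 0.39, edgeR adjusted p = 0.0918) did not pass, nor did the polo kinase Plk1, which averaged 44.0 ± 2.74 CPM with benzamil and 56.4 ± 16.4 CPM with DMSO (-0.10 ± 0.30, edgeR adjusted p = 0.841).

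Of 4 tested genes of the spindle checkpoint and the anaphase-promoting complex, 2 were called lower, where 12.1% of all genes were. Cdc20 (chromosome 4, 118432901 to 118437352), the activator of that complex in mitosis, had 7.99, 19.2, 4.82 and 21.7 CPM with benzamil, against 84.4, 58.2, 38.6 and 39.7 CPM with DMSO and 0 in both untreated libraries. The benzamil and DMSO libraries did not overlap, and the log2 fold change was -1.98 ± 0.44 (edgeR adjusted p = 0.0024). Exons of Cdc20 overlap the fatty acid elongase Elovl1 on the opposite strand. Bub3 (chromosome 7, 131560222 to 131571895), a checkpoint protein of the kinetochore, had 13.3, 31.9, 9.65 and 36.1 CPM with benzamil, against 65.2, 77.6, 50.1 and 45.3 CPM with DMSO, and 0 and 28.1 CPM untreated. The treated groups were separate (-1.26 ± 0.39, edgeR adjusted p = 0.0207), and the call was lost in 6 of 21 alternatives, among them without benzamil library 1 or 3 or DMSO library 1 or 2 (edgeR adjusted p = 0.0612 to 0.121). Ube2c, the ubiquitin-conjugating enzyme of the same complex, averaged 13.4 ± 16.9 CPM with benzamil and 42.1 ± 6.63 CPM with DMSO (-1.11 ± 0.49, edgeR adjusted p = 0.102). Without benzamil library 2 its log2 fold change was -1.87 and it was called lower (edgeR adjusted p = 0.0323). Birc5, or survivin, had 61.3, 79.8, 72.4 and 86.7 CPM with benzamil, against 107, 139, 108 and 82.2 CPM with DMSO, and 53.6 and 169 CPM untreated, with overlapping groups and a log2 fold change of -0.32 ± 0.27 (edgeR adjusted p = 0.413).

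None of the 7 tested kinetochore and spindle genes was called between benzamil and DMSO in edgeR, where 1 had an unadjusted p under 0.05, nor in limma, DESeq2 or the authors' deposited table. Over all genes edgeR called 12.1% lower and 9.91% higher, so few calls among 7 genes would match that share. Their log2 fold changes ran from -0.84 for the centromeric histone Cenpa to -0.04 for the kinetochore protein Cenpf. Cenpf had 128, 211, 121 and 188 CPM with benzamil, against 172, 224, 185 and 198 CPM with DMSO, and 147 and 127 CPM untreated, so the benzamil libraries overlapped both other groups (-0.04 ± 0.21, edgeR adjusted p = 0.927). Kif23, a kinesin of the cytokinetic midzone, had 45.3, 54.3, 19.3 and 28.9 CPM with benzamil, against 75.9, 41.6, 65.6 and 48.2 CPM with DMSO and 0 in both untreated libraries. Its treated groups overlapped (-0.35 ± 0.32, edgeR adjusted p = 0.459). The kinesins Cenpe (-0.50) and Kif11 (-0.43) and the spindle proteins Tpx2 (-0.40) and Nusap1 (-0.16) had edgeR adjusted p-values of 0.190, 0.385, 0.389 and 0.709.

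Mki67, the proliferation marker Ki-67, had 199.8, 306, 154 and 274 CPM with benzamil, against 282, 272, 301 and 298 CPM with DMSO, and 121 and 70.3 CPM untreated. Benzamil libraries lay on both sides of the DMSO libraries, and the log2 fold change was -0.07 ± 0.19 (edgeR adjusted p = 0.833). Top2a, the topoisomerase that untangles replicated chromosomes, had 330.3, 536, 304 and 339 CPM with benzamil, against 622, 739.8, 540.0 and 572 CPM with DMSO, and 201 and 337 CPM untreated. The groups did not overlap, benzamil library 2 lying just under DMSO library 3, and the test was not passed (-0.46 ± 0.20, edgeR adjusted p = 0.0954) except when benzamil library 2 was left out (edgeR adjusted p = 0.0431). Hmgb2 (chromosome 8, 57511907 to 57515999), a DNA-bending protein abundant in dividing cells, had 29.3, 38.3, 19.3 and 14.4 CPM with benzamil, against 133, 85.9, 50.1 and 73.7 CPM with DMSO, and 13.4 and 14.1 CPM untreated. Benzamil libraries were below the DMSO libraries, with a log2 fold change against DMSO of -1.48 ± 0.35 (edgeR adjusted p = 0.00348). They also lay above the untreated libraries, which held 1 read each, against 2 reads in benzamil library 4. Hmgb2 was not called between benzamil and untreated skin (1.14 ± 1.01, edgeR adjusted p = 0.562).

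Among tubulins and tubulin-binding proteins, Tubb5 (chromosome 17, 35833921 to 35838306), a beta-tubulin, had 141, 156, 135 and 246 CPM with benzamil, against 361, 388, 208 and 320.2 CPM with DMSO, and 174 and 141 CPM untreated. Benzamil library 4 lay above DMSO library 3, so the groups overlapped, and Tubb5 was called lower (-0.73 ± 0.22, edgeR adjusted p = 0.0205), a call lost in 6 of 22 alternatives. Among these were the fits without benzamil library 1 or 2 or DMSO library 1 or 2 (edgeR adjusted p = 0.0658 to 0.0955). Tuba1b gave -1.18 ± 0.44 (edgeR adjusted p = 0.056), and passed without DMSO library 4 or either untreated library (edgeR adjusted p = 0.0237 to 0.0359). The microtubule destabiliser Stmn1 gave -0.20 ± 0.49 (edgeR adjusted p = 0.805). Tubulin genes and Hmgb2 have near-identical copies, so their read numbers are uncertain. Genes on the opposite strand also overlap exons of Mcm7 (Ap4m1 and Cops6), Ccna2 (Exosc9), Lig1 (Zswim9), Ube2c (Tnnc2) and Nusap1 (Oip5).

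**Figure D3:**
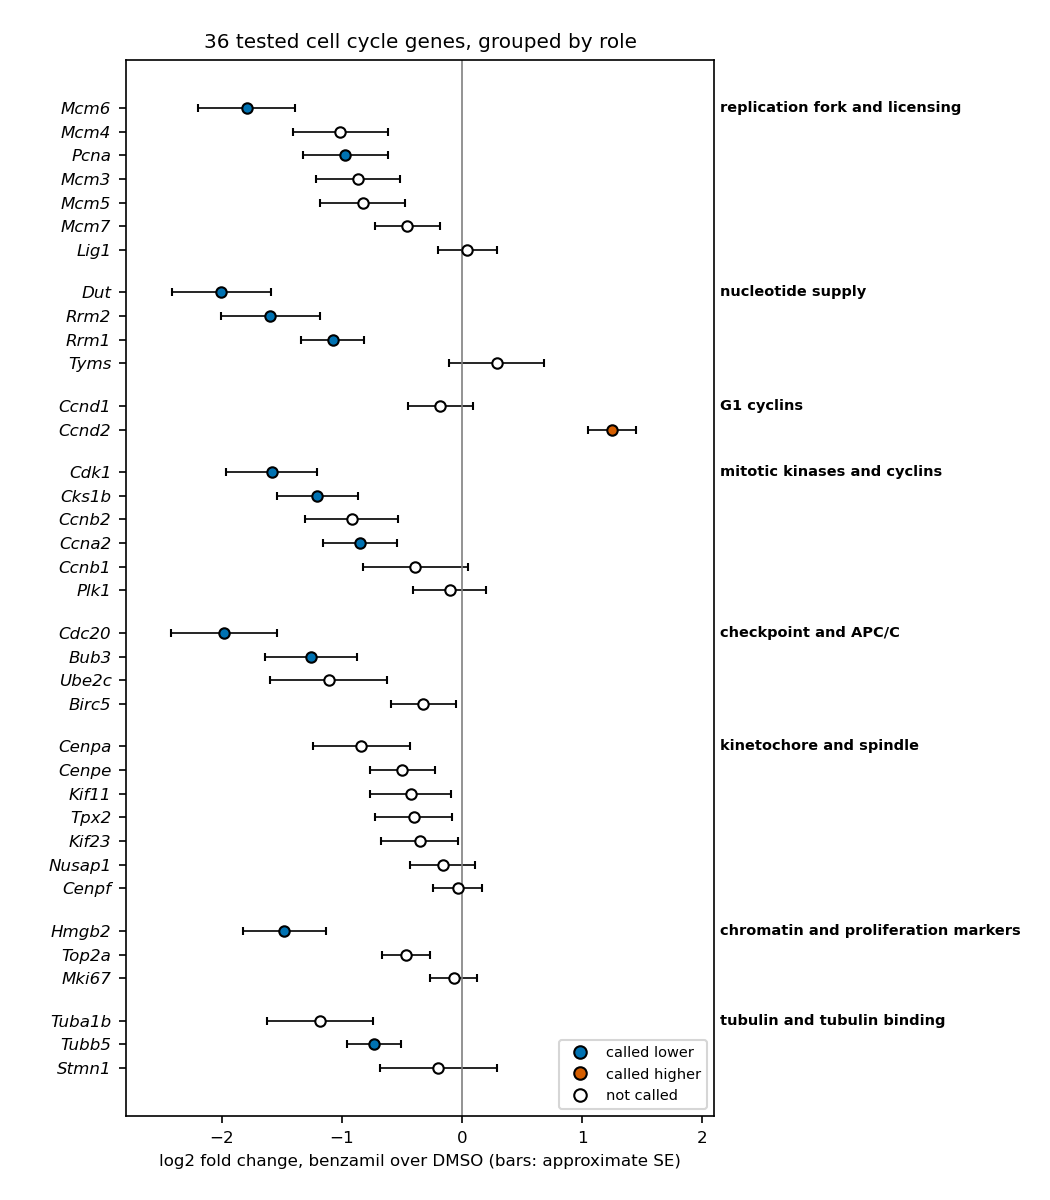
Log2 fold change of benzamil over DMSO (horizontal axis) with its approximate standard error for the 36 tested members, grouped by role. Filled points passed the test, with 12 below 0 and Ccnd2 above. Points of the kinetochore and spindle group are all open and lie between -0.84 and -0.04.

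Replication genes were set against mitosis genes within each library, which cancels the library's scaling. The replication sum covered Mcm2 to Mcm7, Pcna, Rrm1, Rrm2 and Tyms (10 genes), and the mitosis sum 22 genes with roles from entry into mitosis to cytokinesis, among them Cdk1, the B-type cyclins, the Aurora kinases, Plk1, Cdc20, the Bub, Cenp and Kif genes, Top2a and Mki67. Replication genes summed to 301, 380, 222 and 296 CPM in benzamil libraries 1 to 4, against 680, 745, 590 and 615 CPM in DMSO libraries 1 to 4, and 241 and 183 CPM untreated. Mitosis genes summed to 1188, 1749, 907 and 1394 CPM with benzamil, against 2186, 2267, 1886 and 1961 CPM with DMSO, and 737 and 970 CPM untreated. In CPM both sums were lower in every benzamil library than in every DMSO library. With TMM scaling this held for the replication sum only. The mitosis sums then overlapped, with benzamil library 2 at 1738 and DMSO library 3 at 1692. With ribosomal RNA left out, these 2 libraries were at 2533.4 and 2533.0 CPM. The log2 ratio of replication to mitosis reads was -1.98, -2.20, -2.03 and -2.23 with benzamil, against -1.69, -1.60, -1.68 and -1.67 with DMSO, and -1.61 and -2.41 untreated. Benzamil libraries averaged -2.11 ± 0.13 and DMSO libraries -1.66 ± 0.04 (SD, n = 4 each), a difference of -0.45 with no overlap, so replication reads were a smaller share relative to mitosis reads in all 4 benzamil libraries. The untreated libraries, with 18 and 13 replication reads, spanned both treated groups. Of the tested genes in these sums, 4 of 9 replication genes and 3 of 17 mitosis genes were called lower with benzamil, where 12.1% of all genes were. The difference between these counts was not tested, and they are not free of the filter's selection through the DMSO group.

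The size of that difference depended on the lists. It was -0.32 with Tk1, Dut, Gins2, Cdt1, Fen1 and Lig1 added, 16 replication genes in all, -0.37 without Top2a and Mki67, and -0.23 as the mean over genes of log2(CPM + 10). Top2a alone made up 24.4% to 33.5% of the mitosis reads with benzamil, 28.5% to 32.6% with DMSO, and 27.3% and 34.8% in untreated skin. With the longer replication list the groups remained apart, at -1.77 to -1.33 with benzamil and -1.22 to -1.18 with DMSO, and without Top2a and Mki67 they lay at -1.40 to -1.02 and -0.91 to -0.75. Scaled by TMM, the summed level of the replication genes differed by -0.87 on the log2 scale between benzamil and DMSO and that of the mitosis genes by -0.42, against -1.15 and -0.70 in CPM.

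**Figure D4:**
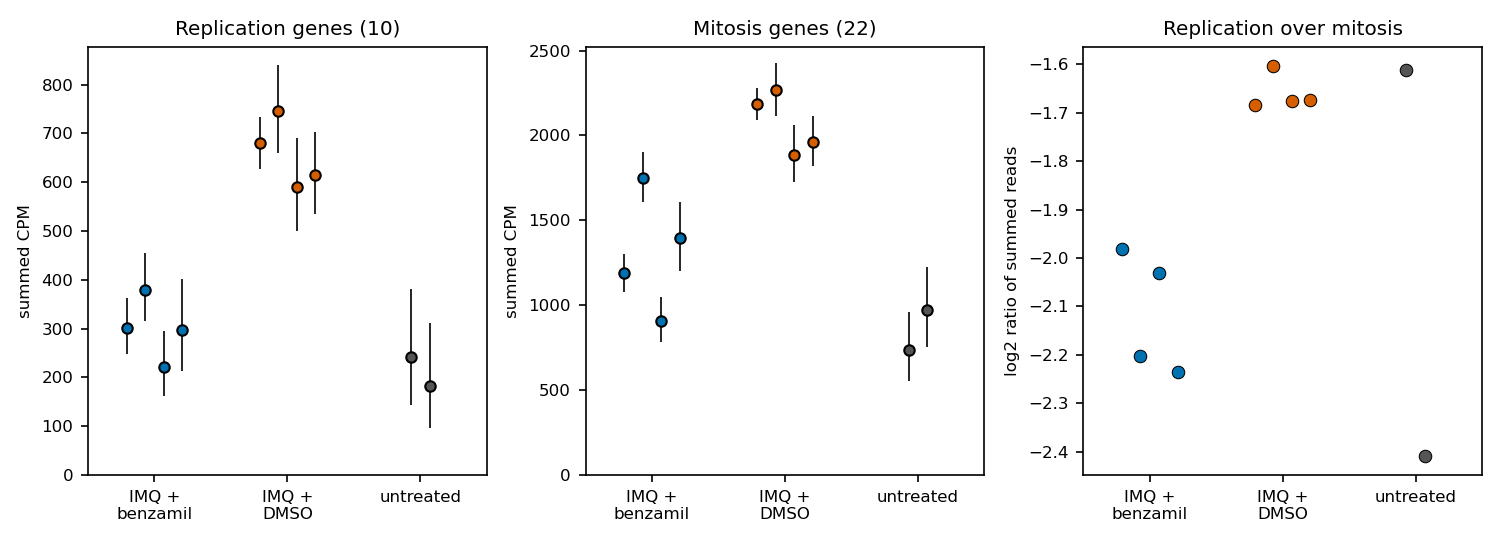
Summed level in CPM of 10 replication genes (left) and 22 mitosis genes (middle), with 95% counting intervals, and the log2 ratio of their summed reads (right), by library and group. The 4 benzamil libraries lie at -2.23 to -1.98 in the ratio, under the 4 DMSO libraries at -1.69 to -1.60, and the 2 untreated libraries lie apart from each other.

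The 12 members that were not tested had few reads. Over the 4 libraries of each group, Mcm2 had 12 reads with benzamil and 55 with DMSO, a ratio of shares of 0.403, interval 0.196 to 0.761. The G1/S cyclin Ccne1 had 1 read with benzamil and 20 with DMSO (ratio 0.0923, interval 0.00223 to 0.577). For the kinase Aurkb these were 3 and 31 reads (ratio 0.179, interval 0.0349 to 0.572), for the flap endonuclease Fen1 5 and 32 reads (ratio 0.288, interval 0.0877 to 0.745), and for the checkpoint kinase Bub1 9 and 41 reads (ratio 0.405, interval 0.173 to 0.846). These 5 exact 95% intervals lie below 1, and they cover counting error only. The ratios use library totals, with which the median tested gene had a log2 fold change of -0.26. A ratio of 1 therefore does not mark the level of the median gene. Intervals reached 1 or more for the thymidine kinase Tk1 (0.713, interval 0.382 to 1.27), the licensing factor Cdt1 (0.545, interval 0.269 to 1.03), the checkpoint kinase Bub1b (0.527, interval 0.233 to 1.09), the kinase Aurka (0.692, interval 0.283 to 1.54), the Cdk-binding Cks2 (0.651, interval 0.210 to 1.73) and the helicase cofactor Gins2 (0.369, interval 0.0393 to 1.73). Cdc6 had 2 reads with benzamil and 8 with DMSO.

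Other genes of the cell cycle gave the surroundings of these values. Of 258 listed genes, 120 were tested, and 17 were called lower and 7 higher with benzamil (14.2% and 5.83%), where 12.1% of all genes tested were called lower and 9.91% higher. Their median log2 fold change was -0.30, against -0.01 over all genes. Enzymes that make purine and other nucleotides were called lower in 4 of 10. Gart, which carries out several steps of purine synthesis, averaged 4.95 ± 6.83 CPM with benzamil and 47.0 ± 4.42 CPM with DMSO (-2.94 ± 0.58, edgeR adjusted p = 0.000751), and without benzamil library 3 the log2 fold change was -3.94. Atic, which completes the purine ring, averaged 38.5 ± 17.9 CPM with benzamil and 98.7 ± 11.5 CPM with DMSO (-1.03 ± 0.29, edgeR adjusted p = 0.0132). Impdh2, the entry to guanine nucleotides, gave -2.36 ± 0.62 (edgeR adjusted p = 0.00794), and the nucleoside diphosphate kinase Nme1 gave -1.05 ± 0.25 (edgeR adjusted p = 0.00421). In a list of histone variants, tubulins, histone chaperones and other nuclear proteins, 6 of 13 were called lower, among them the replacement histone H3f3b (-1.59 ± 0.23, edgeR adjusted p = 3.67e-05), the tubulin Tubb2a (-1.43 ± 0.32, edgeR adjusted p = 0.00231), the histone chaperone Anp32e (-1.15 ± 0.29, edgeR adjusted p = 0.0054) and the GTPase Ran (-0.66 ± 0.24, edgeR adjusted p = 0.0469). The call of Ran was lost in 12 of 21 alternatives, among them without any benzamil library or without DMSO library 1 or 2 (edgeR adjusted p = 0.0612 to 0.192). That of Impdh2 was lost without DMSO library 1 (edgeR adjusted p = 0.0825) and that of Atic without benzamil library 1 (edgeR adjusted p = 0.0638).

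Of 11 cyclins, Cdks and inhibitors, Wee1, Mnat1 and Ccni were called higher and Cdk4 and Cdk6 lower. Here and for the lists below, the shares over all genes tested were 9.91% higher and 12.1% lower. Wee1, the kinase that restrains Cdk1, averaged 82.6 ± 20.8 CPM with benzamil and 35.7 ± 2.13 CPM with DMSO (1.38 ± 0.31, edgeR adjusted p = 0.00259), and Mnat1, a subunit of the Cdk-activating kinase, gave 1.10 ± 0.26 (edgeR adjusted p = 0.00374). The partners of the D-type cyclins were called lower, Cdk6 at -1.07 ± 0.27 (edgeR adjusted p = 0.00554) and Cdk4 at -1.23 ± 0.38 (edgeR adjusted p = 0.0222). The call of Cdk4 was lost without benzamil library 1 or 2 or DMSO library 1 (edgeR adjusted p = 0.0794 to 0.122). The Cdk inhibitor Cdkn1a averaged 195 ± 68.9 CPM with benzamil and 287 ± 73.6 CPM with DMSO and was not called (-0.30 ± 0.22, edgeR adjusted p = 0.35). Of 48 other mitosis, condensin and cohesin genes, Smc2, Anln and Tacc3 were called lower and Anapc5 and Stag2 higher. The condensin Smc2 gave -0.70 ± 0.23 (edgeR adjusted p = 0.0328), lost in 10 of 22 alternatives, among them without benzamil library 1, 2 or 3 or DMSO library 1, 2 or 4 (edgeR adjusted p = 0.0531 to 0.150). Anapc5, a subunit of the anaphase-promoting complex, was at 0.83 ± 0.23 (edgeR adjusted p = 0.0115), a call lost when benzamil library 3 was left out (edgeR adjusted p = 0.0638). Of 18 origin and replisome genes, Tipin was called lower and Asf1a higher. Of 10 damage and p53 genes, Tob2 was called lower and the p53-induced Trp53inp1 higher (1.70 ± 0.44, edgeR adjusted p = 0.00744, and 0.0555 without DMSO library 1). None of 10 tested genes of the list of Rb, E2F and DREAM components and growth-related transcription factors was called in edgeR, where 1 had an unadjusted p under 0.05. Of the 25 such genes that limma could test without a filter on reads it called 3 (E2f3, E2f7 and Myc), and DESeq2 and the authors' deposited table called 0. Ccni, E2f3, E2f7, Anln, Tacc3, Stag2, Tipin, Asf1a and Tob2 are named after their values were seen. Ccnd3, E2f1, Foxm1, Gmnn and Myc had too few reads for the test. Myc had 5 reads with benzamil and 50 with DMSO, and Mybl2 was not analysed here.

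Markers of other cells and cell states differed beside these genes, and their part in the results was not tested. The 4 stress keratins Krt6a, Krt6b, Krt16 and Krt17 summed to 699 to 4926 CPM with benzamil, against 5463 to 10973 CPM with DMSO, and 147 and 225 CPM untreated, benzamil library 4 being the highest of its group. Without that library 10 members were called lower. Suprabasal keratinocyte markers (7 of 7 measured) summed to 45596 to 54536 CPM with benzamil, against 15633 to 34050 CPM with DMSO, and 14193 and 17233 CPM untreated. Krt2, Lor, Flg and Flg2 of this list were called higher with benzamil than with DMSO in edgeR, whereas Krt1 (log2 fold change -0.56) and Ivl (-0.11) had negative values without a call. Basal keratinocyte markers (8 of 8) summed to 12070 to 16281 CPM with benzamil, against 15802 to 20302 CPM with DMSO, and 13576 and 11174 CPM untreated. Krt14 and Krt5 made up most of that sum and were not called (-0.19 and -0.51), whereas Dst (1.58), Krt15 (1.17) and Itgb4 (0.61) of the same list were called higher with benzamil in edgeR. Leukocyte markers (13 of 19 in both tables) summed to 294 to 4153 CPM with benzamil, against 11834 to 19008 CPM with DMSO, and 590 and 295 CPM untreated, and in the DMSO libraries nearly all of it was S100a8 and S100a9, which keratinocytes also make. The other 11 summed to 145 to 303 CPM with benzamil, against 260 to 336 CPM with DMSO, and 375 and 253 CPM untreated, with Retnlg at 0 reads in the benzamil and untreated groups. Sebaceous markers (7 of 8) summed to 4578 to 8054 CPM with benzamil, against 1885 to 3622 CPM with DMSO, and 9060.0 and 5946 CPM untreated. Skeletal muscle markers (7 measured) summed to 520 to 1242 CPM with benzamil, against 156 to 980 CPM with DMSO. Of them 6 were called higher with benzamil, where 9.91% of all genes were. Of the hair follicle list, 1 of 10 genes, Krt75, was in both tables.

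In skin with imiquimod and DMSO, 11 of 36 tested members were higher than in untreated skin, with roles in replication and in mitosis, and Ccnd2 was lower. The effects of imiquimod and of DMSO cannot be told apart here, and the DMSO libraries are the same as in the comparison with benzamil. The test called 11 members higher and 1 lower, where 9.93% of all genes were called higher and 8.45% lower. For 28 of the 36 tested members every DMSO library was above both untreated libraries, which held for 32% of all genes. With genes at 0 untreated reads set at their bound, the median log2 fold change was 1.25 over the members and 0.18 over all genes. Of the 36, 35 were over the filter's cutoff in at least 2 DMSO libraries and 10 in both untreated libraries. The filter by itself thus favours members that are higher with DMSO, and these counts and the median are not free of that selection. On the deposited log2 values limma called 28 members higher, where it called 24.1% of the 9820 genes of that table. After thinning, Rrm1 and Mki67 were called higher and Ccnd2 lower among the 9 members that could be tested, where 13.9% of genes were called higher and 13.3% lower. The 11 called by edgeR at full depth were Mcm4, Mcm5, Mcm6, Rrm1, Cdk1, Ccna2, Cdc20, Kif23, Mki67, Top2a and Hmgb2.

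Of these, 7 had no read in either untreated library, where 3 reads over the group set the floor. Against that floor the DMSO group was at least 3.46-fold higher for Ccna2 (edgeR adjusted p = 0.0032), at least 3.23-fold for Cdk1 (edgeR adjusted p = 0.00915), at least 3.16-fold for Cdc20 (edgeR adjusted p = 0.0155) and at least 3.05-fold for Kif23 (edgeR adjusted p = 0.0104). For the helicase subunits the DMSO group was at least 2.80-fold higher for Mcm6, 2.47-fold for Mcm4 and 2.39-fold for Mcm5, with edgeR adjusted p-values of 0.011, 0.0216 and 0.0132. In all, 17 of the 47 members had 0 untreated reads, including Tyms and Ccnb1, which were not called (edgeR adjusted p = 0.06 and 0.0571). Tyms passed without benzamil library 1 or 4 (edgeR adjusted p = 0.0457 and 0.0475) and Ccnb1 without benzamil library 2 (edgeR adjusted p = 0.0476). Rrm1 had 2 untreated reads, a ratio of shares of 10.6, interval 2.90 to 87.8 (edgeR adjusted p = 0.0017), and Hmgb2 also had 2, a ratio of 7.41, interval 2.02 to 61.6 (edgeR adjusted p = 0.028).

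Mki67 averaged 288 ± 13.7 CPM with DMSO and 95.5 ± 35.6 CPM untreated (SD, n = 4 and 2), a log2 fold change of 1.50 ± 0.37 (edgeR adjusted p = 0.0061). Top2a averaged 619 ± 87.6 CPM with DMSO and 269 ± 96.4 CPM untreated (1.12 ± 0.31, edgeR adjusted p = 0.0125). Ccnd2 averaged 320.0 ± 18.9 CPM with DMSO and 958 ± 162 CPM untreated and was called lower (-1.67 ± 0.25, edgeR adjusted p = 3.89e-05). Nusap1, Birc5 and Mcm3 had the negative log2 fold changes of -0.10 ± 0.46, -0.10 ± 0.44 and -0.06 ± 0.55, without a call. Without untreated library 2 the values of Nusap1 and Birc5 were 0.21 and 1.07, and without untreated library 1 that of Mcm3 was 0.83. These calls rest on 2 shallow libraries: without untreated library 1 the test called 3 members higher, and without untreated library 2 it called 5. Without untreated library 1 the calls of Mcm4, Mcm5, Mcm6, Cdk1, Cdc20, Kif23, Top2a and Hmgb2 were lost (edgeR adjusted p = 0.0744 to 0.155). Without untreated library 2 those of Mcm4, Mcm5, Mcm6, Cdc20, Kif23, Mki67 and Hmgb2 were lost (edgeR adjusted p = 0.0514 to 0.0963). That of Hmgb2 was lost also without DMSO library 1 (edgeR adjusted p = 0.0629). In DESeq2 and in the authors' deposited table, Hmgb2 (adjusted p = 0.104 and 0.105) and Mcm4 (0.0539 and 0.0562) were not called. The log2 ratio of replication to mitosis reads differed by 0.35 between DMSO and untreated skin, and by -0.048 without untreated library 2. Fibroblast and endothelial markers (6 of 9 in both tables) summed to 525 to 1057 CPM with DMSO and to 18817 and 7829 CPM untreated, and 7 skeletal muscle markers to 156 to 980 CPM with DMSO and to 2546 and 2319 CPM untreated. Their part in the members' differences was not tested.

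Of the 120 other cell cycle genes tested, 11 were called higher and 7 lower in DMSO libraries against the untreated ones (9.17% and 5.83%), where 9.93% of all genes tested were called higher and 8.45% lower. Nme1 (2.97 ± 0.59, edgeR adjusted p = 0.00112), Smc2 (1.89 ± 0.47, edgeR adjusted p = 0.00691) and Ran (2.23 ± 0.56, edgeR adjusted p = 0.00702) were higher. Wee1 (-2.32 ± 0.44, edgeR adjusted p = 0.000708), Mnat1 (-1.66 ± 0.39, edgeR adjusted p = 0.00425) and the p53 inhibitor Mdm4 (-1.87 ± 0.43, edgeR adjusted p = 0.00388) were lower. For Wee1 the levels were 35.7 ± 2.13 CPM with DMSO and 169 ± 120.4 CPM untreated. Without untreated library 1 the calls of Wee1, Mnat1 and Ran were lost (edgeR adjusted p = 0.219, 0.446 and 0.0679), and without untreated library 2 those of Smc2 and Mdm4 (edgeR adjusted p = 0.0538 and 0.0922). The log2 fold change of Wee1 was -1.26 and that of Mnat1 -0.70 without untreated library 1, and that of Nme1 was 4.13 without untreated library 2.

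Between skin with imiquimod and benzamil and untreated skin, 1 member was called higher, Mki67, and 0 lower in edgeR and in DESeq2 (0 also at an unadjusted p under 0.05), where 2.44% of all genes were called higher and 1.56% lower. Mki67 averaged 234 ± 69.3 CPM with benzamil and 95.5 ± 35.6 CPM untreated (1.43 ± 0.37, edgeR adjusted p = 0.0291). That call was lost in 8 of 19 alternatives, among them without benzamil library 2 (adjusted p = 0.0601), benzamil library 4 (0.0501), untreated library 1 (0.0583) and untreated library 2 (0.169). Levels of Ccna2 and Kif23 were at least 1.60-fold and 1.97-fold higher with benzamil than the untreated floor, without a call (edgeR adjusted p = 0.0576 for both). Rrm1 had a ratio of 4.37, interval 1.16 to 36.9 (edgeR adjusted p = 0.112), and Ccnd2 gave -0.42 ± 0.25 (edgeR adjusted p = 0.368). Every benzamil library lay below both untreated libraries for 3 tested members (Dut, Ccnd2 and Nusap1) and above them for 13, against 16% and 15.7% of all genes. Among the 13 were all 9 tested members with 0 reads in both untreated libraries, where any read puts a benzamil library above. Against the untreated floor the bound was under 1 for Mcm4 (0.986), Mcm6 (0.658), Cdk1 (0.845) and Cdc20 (0.611). For these a higher level was not shown. The count of 13 is also not free of the filter, which kept members mainly through the DMSO group. Fibroblast and endothelial markers summed to 492 to 1979 CPM with benzamil, against 18817 and 7829 CPM untreated, and skeletal muscle markers to 520 to 1242 CPM with benzamil, against 2546 and 2319 CPM untreated. Their part in the difference of Mki67 was not tested.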

How the data were processed

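RNA was measured in 10 libraries of mouse skin made with a 3' mRNA kit with unique molecular identifiers from 500 ng of RNA and sequenced with a 150-cycle kit, per the labels' protocols. The submitters' processing notes name STAR, featureCounts, DESeq2 and mm10, with versions not given in the sources used here. It is not stated whether identifiers were collapsed, and all intervals and floors cover counting error only. Reads of such libraries come from the transcript end and were not divided by length.

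Expression was deposited by the authors as 2 tables of log2 values, each normalized on its own, whose form is that of DESeq2's variance-stabilising transformation. Their deposited result tables hold, beside the p-value, a Wald score, a log2 fold change and a mean signal, which is size-factor-scaled counts. A deposited count table holds 61533 identifiers, all human, and was not used in any comparison. Each log2 value was turned back into reads, 100% of which were whole within 0.001 reads, and 39116 of 39116 DMSO values were equal between the tables. The 9779 genes in both tables were joined, leaving out 874 and 41.

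All 10 libraries entered 1 fit of edgeR 4.0.16 (R 4.3.3) with TMM scaling and filterByExpr (minimum count 10, total 15), which kept 5245 genes. The common biological coefficient of variation was 0.195. Benjamini-Hochberg adjustment ran over all genes tested. An unadjusted p under 0.05 was found for 1851 genes between benzamil and DMSO, for 1746 between DMSO and untreated, and for 992 between benzamil and untreated. The standard error is the absolute log2 fold change over the square root of the F statistic. The code was tested on simulated data. Alternatives included limma 3.58.1 on the log2 values and DESeq2 1.42.0. Ratios of shares have exact 95% intervals conditional on their sum, and a group at 0 is set at 3 reads over the group. Coordinates are GENCODE M21 (mm10), and promoters are RefSeq GRCm38.p6.

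The members and lists were chosen with earlier results of these data known. Every member may be named, with per-library values for those called and, added after seeing the values, Tyms. Such values are also given for Cenpf, Birc5 and Lig1. These 3 had the highest mean CPM over libraries among tested members called neither for benzamil over DMSO nor for DMSO over untreated. Of the other cell cycle genes, the 12 and 6 with the smallest adjusted p among those called in each imiquimod comparison and 8 fixed genes are named.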

Additional observations from a re-analysis of the deposited data

Results flagged for a closer look

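Of 78 groups of 4 libraries examined, 4 held a library far from the other 3, judged by its gap to the nearest library relative to the group's range (Dixon's criterion at 95%). Chance flags about 1 in 20 groups. Mcm6 was 4.82 CPM in benzamil library 3, a single read, against 14.4 to 16.0 CPM in the other benzamil libraries. Ccnb1 was 41.5 CPM in benzamil library 2, against 13.3 to 14.5 CPM in the others. Top2a was 536 CPM in the same library, against 304 to 339 CPM in the others. The log2 ratio of replication to mitosis reads was -1.60 in DMSO library 2, against -1.69 to -1.67 in the other DMSO libraries, and the difference between benzamil and DMSO was -0.43 without it.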

How the results depend on the processing

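Across 22 alternative settings no called gene turned its direction. Of 2847 gene values compared, 49 without a call changed sign. Between benzamil and DMSO these included Lig1, Tyms, Ccnd1, Plk1, Cenpf and Mki67, each when 1 library was left out. For benzamil over DMSO, Dut, Cdc20, Mcm6, Hmgb2, Cdk1, Rrm1 and Ccnd2 kept their calls in every alternative that gave them a value. Scaling by library totals called 248 genes higher and 1009 lower, with 19 members lower. Thinning all libraries to the shallowest called 139 and 135 genes, with 1 member lower, and 213 and 204 genes for DMSO over untreated, with 2 members higher. Leaving out benzamil libraries 3 and 4 called 284 and 300 genes, with 7 members lower, and 43 genes lower for benzamil over untreated. DESeq2 called 327 genes higher with benzamil than with DMSO and 316 higher with DMSO than untreated. For DMSO over untreated limma on the log2 values called 2369 genes and 28 members higher, and the authors' deposited p-values called 324 genes higher. The causes were not tested.

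For benzamil over untreated, 63 genes were called higher with library totals, 200 without a filter (2 members), 80 after thinning, 84 with the replicate block and 77 with only those groups in the fit. Apart from the unfiltered fit these called 0 members. Same-numbered benzamil and DMSO libraries did not visibly deviate together (correlations of 0.07, 0.0007, 0.04 and 0.07). No pairing by number was thus seen, but counting error in libraries this shallow could hide one. With the replicate block 465 genes were higher and 594 lower for benzamil over DMSO, with 11 members lower, and 545 and 418 for DMSO over untreated, with 12 members higher.

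Leaving out 1 library at a time gave 291 to 632 genes higher and 356 to 799 lower for benzamil over DMSO, with 8 to 14 members lower and 1 higher. For DMSO over untreated it gave 225 to 532 and 208 to 448 genes, with 3 to 14 members higher and 1 lower, and for benzamil over untreated 63 to 141 and 36 to 92 genes, with 0 to 1 members higher. Where 1 untreated library remained, it was assumed to vary like the other groups. The difference in the replication to mitosis log2 ratio ran from -0.50 to -0.41 for benzamil over DMSO, from -0.048 to 0.75 for DMSO over untreated and from -0.50 to 0.30 for benzamil over untreated. It was -0.32 with the longer replication list and -0.23 as a mean of log2(CPM + 10). The summed replication level differed by -1.28 to -1.02 for benzamil over DMSO (-0.87 with TMM scaling), by 1.44 to 1.84 for DMSO over untreated (1.42 without ribosomal RNA) and by 0.29 to 0.69 for benzamil over untreated. The summed mitosis level differed by -0.85 to -0.54, by 1.09 to 1.49 (1.07 without ribosomal RNA) and by 0.39 to 0.79.

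Depth limits low members: 3 reads were worth 40.2 and 42.2 CPM in the untreated libraries.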
